A study of Mus musculus with 6 samples.

Results

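The synaptonemal complex and chromosome axis genes described here are Sycp1, Sycp2, Sycp3, Syce1, Syce2, Syce3, Tex12, Hormad1, Hormad2 and Trip13. They were taken as every probe set whose platform annotation names exactly 1 of these symbols, which gave 12 probe sets for the 10 genes, out of 34945 probe sets that name a single gene and 18193 genes in all. Their transcripts were measured on Affymetrix arrays of ovaries from mouse embryos at stage E15.5 (day of embryonic development), with 3 arrays labelled dmrt1 knockout and 3 labelled WT. The series text calls the removal of Dmrt1 conditional, and the labels name no Cre driver, no strain and no litter, and do not state whether each replicate is an animal of its own. All p-values therefore measure the spread between these arrays, which may be technical. Both groups are whole ovaries, in which fewer germ cells and less RNA per germ cell cannot be told apart.

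In meiotic prophase each chromosome folds its sister chromatids along a protein axis, and the axes of homologous chromosomes are then joined along their length by the synaptonemal complex. SYCP2 and SYCP3 form the axial elements, which become the lateral elements of the complex. SYCP1 forms the transverse filaments that span the gap, and SYCE1, SYCE2, SYCE3 and TEX12 build the central element in the middle. HORMAD1 and HORMAD2 sit on axes that are not yet joined, and the ATPase TRIP13 helps to take them off as synapsis proceeds. In the mouse ovary these events take place before birth, so that many germ cells of this age are in prophase. DMRT1, a DM domain transcription factor, is known to act in germ cells. The comparison asked which transcripts differ when it is removed from the fetal ovary.

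The Dmrt1 probe set lay under the filter level on all arrays (5.97 to 8.55 intensity units in the knockout and 8.47 to 13.0 in the wild type), and its place with respect to the deletion is not given in the sources used here, so it checks no label. Xist, the RNA that silences an X chromosome in female cells, read 3.41 on knockout replicate 1, 1008 and 1089.7 on the other knockout arrays, and between 2534 and 2718 in wild type. Of the Y chromosome, Uty, Kdm5d and Eif2s3y lay at 2.73 to 3.82 on the knockout arrays and at 2.74 to 3.74 on the wild-type arrays. Knockout replicate 1 thus stood apart in Xist, and results are also given without it. The germ cell markers Ddx4, Dazl, Mael, Rnf17 and Tex14 were bright on all arrays, Tdrd9 was dim, and Tdrd1 and Tdrd5 lay under the filter level. Over the 8 markers the summed intensity was 8009.9 to 12338 in the knockout and 7093 to 8373 in the wild type, and all 6 tested markers had a positive log2 difference (knockout minus wild type, median 0.45), with 0 past the threshold and 3 at an unadjusted p under 0.05. Among all tested probe sets, 20.7% had an unadjusted p under 0.05 (limma), and the share over genes counted once was not computed. The 5 pluripotency genes of early germ cells summed to 742 to 4659 in the knockout and 176 to 312 in the wild type. Of these, Sox2, Lin28a and Sall4 were past the threshold, higher in knockout. The 6 macrophage and leukocyte markers summed to 1867 to 3161 in the knockout and 3115 to 3841 in the wild type (2 past the threshold, lower in knockout), and the 6 endothelial markers to 1275 to 1724 in the knockout and 1689 to 2035 in the wild type (2, lower). For 6 stroma markers the sums were 25543 to 27227 in knockout samples and 28838 to 31946 in wild type, for 3 erythroid markers 315 to 478 in knockout samples and 475 to 1282 in wild type (1, Slc4a1, past the threshold and lower in knockout), and for 7 pregranulosa markers 10135 to 11411 in knockout samples and 9324 to 9816 in wild type. The 4 Sertoli cell markers summed to 804 to 1209.6 in knockout samples and 841 to 1072 in wild type, with 0 past the threshold and 1 (Sox9, lower) at an unadjusted p under 0.05. Most of that sum was Cldn11 (764 to 1182 in knockout samples, 802 to 1036 in wild type), and Dhh read 11.1 to 18.8 in knockout samples and 13.4 to 14.9 in wild type. Amh, which defines Sertoli cells, lay between 4 and 4.5 on all 6 arrays, and Sox9 at 12.1 to 16.2 in the knockout and 17.3 to 20.5 in the wild type. The part of these shifts in the values below was not tested.

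All 10 genes passed the filter on low values, with all 6 arrays of each brightest probe set above it. None of the 10 passed the test in either direction (limma adjusted p of 0.0811 to 0.987, over 22040 tested probe sets). By the same test 6.6% of all tested probe sets were called, 1.46% higher and 5.15% lower in knockout, which is 321 higher and 1134 lower. That split was 874 and 829 after centring arrays on their medians, and 154 and 4594 after centring on the germ cell markers. Among genes counted once through the brightest probe set, 3.55% of 11897 were called, 1.28% higher and 2.27% lower. Of the 11 tested probe sets of these genes, 3 had an unadjusted p under 0.05, against 20.7% of all tested probe sets. The median log2 difference of the 10 genes was 0.14, with a range from -0.41 for Sycp2 to 0.45 for Syce1, beside 0.02 over all tested genes. Without knockout replicate 1, 0 of the 11 probe sets were called, and the median was 0.09. The median was -0.01 without wild-type replicate 3 and -0.25 after centring on the germ cell markers.

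The intervals of the differences were taken with the arrays as deposited, and they bound the ratios under that scaling only. For 9 of the 10 genes the 95% interval of the knockout to wild-type ratio lay within a 2-fold change in either direction, Hormad2 being the exception. For 4 of them, Sycp1, Sycp3, Syce2 and Hormad1, it lay within 1.5-fold. Centring on the germ cell markers moved the median log2 difference of the 10 genes from 0.14 to -0.25. Sycp2 was then at -0.80 and Syce3 at -0.72. Intervals under that centring are not given here, so the bounds may not hold under it. Groups did not overlap for 2 genes, Sycp2 with all knockout arrays below and Trip13 with all knockout arrays above, against 11.4% of all tested genes below and 12.3% above.

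**Figure D1:**
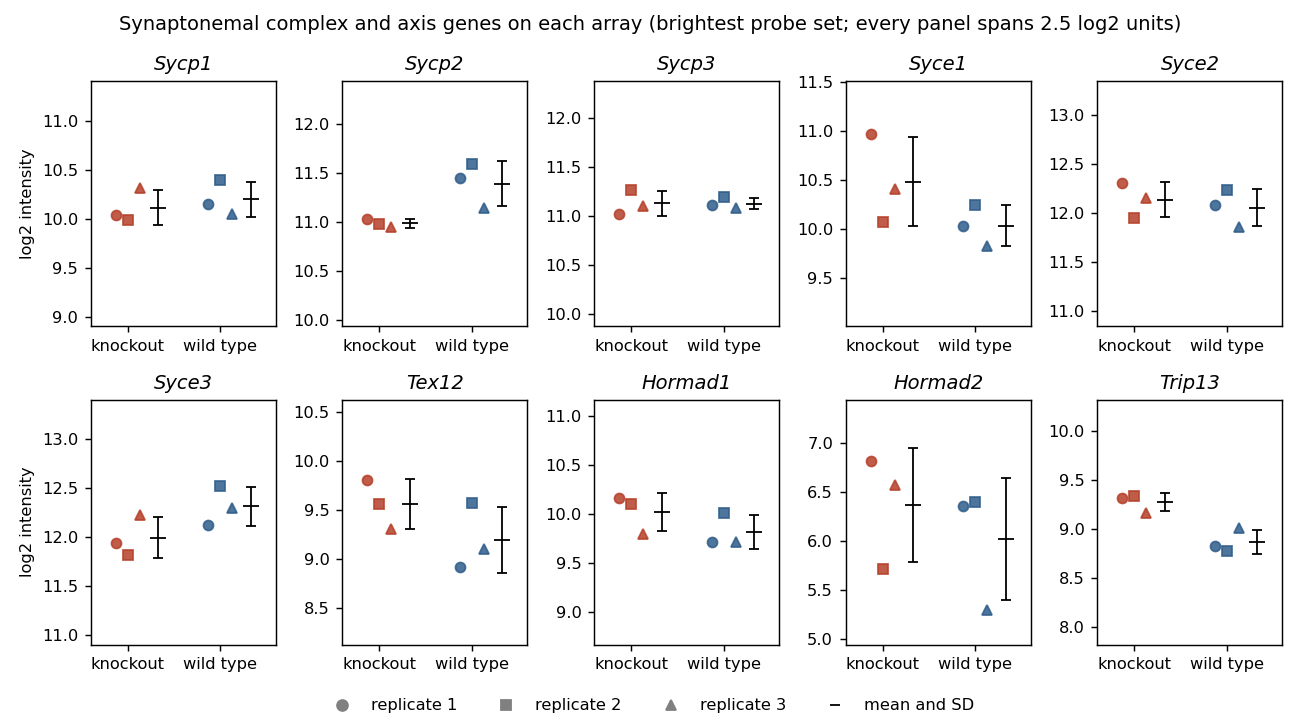
Log2 intensity of the brightest probe set of each of the 10 genes, with knockout arrays at the left and wild-type arrays at the right of each panel, and the mean and SD (n = 3) in black. The panels for Sycp2 and Trip13 are those in which the groups do not overlap, and knockout replicate 1 is the highest of all 6 arrays for 5 genes.

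The start regions of these genes were read from RefSeq (build GRCm38.p6), each window running from 250 bases before to 50 bases after an annotated start site, and all 10 symbols matched. Shown here are Sycp2 and Trip13, the genes whose groups did not overlap, Sycp3, whose means were the closest, and Tex12, which alone among the 10 holds a DMRT-type core. Capitals mark matches to 4 motifs on either strand: GCGGGA (E2F-type), CACGTG (an E-box), CNCCTCAG (reported for the meiotic entry factors STRA8 and MEIOSIN) and ACANTGT (the core of DMRT-type motifs). The windows are chr2:178407609-178407908 (minus strand) for Sycp2, chr13:73937718-73938017 (minus) for Trip13, chr10:88459337-88459636 (plus) for Sycp3 and chr9:50561219-50561518 (minus) for Tex12, written 5′ to 3′ on the gene's strand.
Sycp2: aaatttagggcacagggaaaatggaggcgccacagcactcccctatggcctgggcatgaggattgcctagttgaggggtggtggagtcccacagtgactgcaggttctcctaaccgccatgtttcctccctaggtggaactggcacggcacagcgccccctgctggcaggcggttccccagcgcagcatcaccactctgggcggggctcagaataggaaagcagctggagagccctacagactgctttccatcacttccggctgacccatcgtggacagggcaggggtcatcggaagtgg
Trip13: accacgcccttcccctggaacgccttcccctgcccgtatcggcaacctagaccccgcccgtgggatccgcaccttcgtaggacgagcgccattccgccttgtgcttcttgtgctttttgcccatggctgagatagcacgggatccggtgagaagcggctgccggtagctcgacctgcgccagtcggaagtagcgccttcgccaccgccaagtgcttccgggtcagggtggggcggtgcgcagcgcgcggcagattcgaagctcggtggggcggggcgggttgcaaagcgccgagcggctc
Sycp3: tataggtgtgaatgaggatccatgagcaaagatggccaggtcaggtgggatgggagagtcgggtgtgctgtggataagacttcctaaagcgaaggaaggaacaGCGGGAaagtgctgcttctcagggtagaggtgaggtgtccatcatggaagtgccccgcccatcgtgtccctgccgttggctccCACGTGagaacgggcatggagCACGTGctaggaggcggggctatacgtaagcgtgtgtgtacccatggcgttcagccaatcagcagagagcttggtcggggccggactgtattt
Tex12: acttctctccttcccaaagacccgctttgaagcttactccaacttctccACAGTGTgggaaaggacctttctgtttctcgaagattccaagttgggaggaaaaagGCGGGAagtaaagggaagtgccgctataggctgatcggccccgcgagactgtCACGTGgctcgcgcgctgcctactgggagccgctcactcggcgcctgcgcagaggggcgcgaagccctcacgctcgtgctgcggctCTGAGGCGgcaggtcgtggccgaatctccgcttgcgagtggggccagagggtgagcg

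The Sycp2 and Trip13 windows held none of the 4 motifs, and neither did those of Syce1 and Syce3. Sycp3 held E-boxes 64 and 43 bases before its start site (positions -64 and -43) and an E2F-type match at -147, counting a match from its first base with the start site at 0. Tex12 held all 4 motifs, the DMRT-type core at -201. The E2F-type motif was found in Sycp1, Sycp3, Syce2, Tex12 and Hormad1, and these same 5 genes held an E-box. These are 50% of the 10 genes for each motif, against 22.0% of 27025 mouse genes for the E2F-type motif and 8.09% for the E-box. The STRA8-type motif was found in Sycp1, Syce2, Tex12 and Hormad2 (40%, against 9.12%), overlapping an E2F-type match in Syce2, and the DMRT-type core in Tex12 (10%, against 8.62%). Genes with several windows were counted once if any window matched. These are matches of letters in a short window, given as a description.

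Neither of the axial element genes, Sycp2 and Sycp3, passed the test. Sycp2 (chr2:178345295-178407776) encodes the large axis protein that binds SYCP3. Its intensities in the knockout ovaries were 2095, 2019.5 and 1974 (replicates 1, 2 and 3, an order kept throughout), against 2789, 3085 and 2258 in the wild-type ovaries. All 3 knockout arrays lay below all wild-type arrays, and the knockout values were close together (SD of 0.04 log2 units, against 0.23 in wild type). The log2 difference was -0.41 ± 0.12 (SE, n = 3 per group), a ratio of 0.626 to 0.909 by its 95% interval, and it did not pass (limma adjusted p = 0.0811). It passed without wild-type replicate 3, the lowest wild-type array (-0.53, limma adjusted p = 0.0333). After centring arrays on the germ cell markers it passed as well (-0.80, limma adjusted p = 0.00369), in a scaling that puts the median difference of all tested probe sets at -0.40. Without knockout replicate 1 it was -0.43 (limma adjusted p = 0.138).

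Sycp3 (chr10:88459587-88473236), the axis protein whose staining is widely used to stage prophase, read 2087, 2472 and 2198 in knockout and 2212, 2341 and 2168 in wild type. The knockout values spanned the wild-type range on both sides, with a log2 difference of 0.00 ± 0.10 (limma adjusted p = 0.987) and a ratio between 0.859 and 1.17. Within each array, the log2 ratio of the Sycp2 to the Sycp3 signal, whose proteins bind each other, lay between -0.29 and 0.01 in knockout and between 0.06 and 0.40 in wild type, without overlap. This ratio is 1 of 5 that were looked at after the values were seen. They have no test, and each compares signals of different probe sets, not amounts of RNA. How often ratios of other gene pairs keep the groups apart was not counted.

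Sycp1 (chr3:102818499-102936100), which encodes the transverse filament protein, read 1051, 1011 and 1275 in knockout and 1134, 1342 and 1057 in wild type. The groups overlapped, and the log2 difference was -0.08 ± 0.14 (SE, n = 3 arrays per group, limma adjusted p = 0.792). The sign turned after median centring (0.05).

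None of the 4 central element genes passed the test. Syce3 (chr15:89390174-89410503), whose small protein is needed to load the other central element proteins, read 3933, 3604 and 4769 in knockout and 4456, 5886 and 5017 in wild type. Knockout replicate 3 lay within the wild-type range, and the other knockout arrays lay below it. The log2 difference was -0.32 ± 0.13 (SE, n = 3 per group), with an unadjusted p of 0.0304, and did not pass (limma adjusted p = 0.186). Centred on the germ cell markers it passed (-0.72, limma adjusted p = 0.0083), in a scaling that called 4594 of all 22040 tested probe sets lower. The log2 ratio of the Syce3 to the Sycp1 signal lay between 1.83 and 1.90 in knockout and between 1.97 and 2.25 in wild type, without overlap and without a test.

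Syce1 (chr7:140777229-140787854), a central element protein that binds SYCE3 and SIX6OS1, read 2011, 1081 and 1363 in knockout and 1051, 1216 and 912 in wild type. Knockout replicate 1 was the highest array, and knockout replicate 2 lay among the wild-type arrays. The log2 difference of 0.45 ± 0.21 did not pass (limma adjusted p = 0.256), and without knockout replicate 1 it was 0.21 (limma adjusted p = 0.564). The knockout SD was 0.45 log2 units, against 0.21 in wild type.

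Syce2 (chr8:84872111-84887446) and Tex12 (chr9:50557148-50561268) encode proteins that assemble with each other into the fibres of the central element. Syce2 read 5063, 3950.1 and 4561 in knockout and 4315, 4809 and 3709 in wild type, overlapping, with a log2 difference of 0.08 ± 0.12 (SE, n = 3 arrays per group, limma adjusted p = 0.756). Tex12 read 900.1, 759 and 633 in knockout and 487, 762 and 549.5 in wild type. Wild-type replicate 2 lay above the lower 2 knockout arrays, and the log2 difference was 0.36 ± 0.19 (limma adjusted p = 0.326). Left-out arrays moved it to 0.24 (knockout replicate 1), 0.22 (wild-type replicate 1) and 0.55 (wild-type replicate 2). Centred on the germ cell markers, both differences turned negative (-0.32 for Syce2 and -0.04 for Tex12). The log2 ratio of the Syce2 to the Tex12 signal overlapped between groups (2.38 to 2.85 in knockout, 2.66 to 3.15 in wild type).

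**Figure D2:**
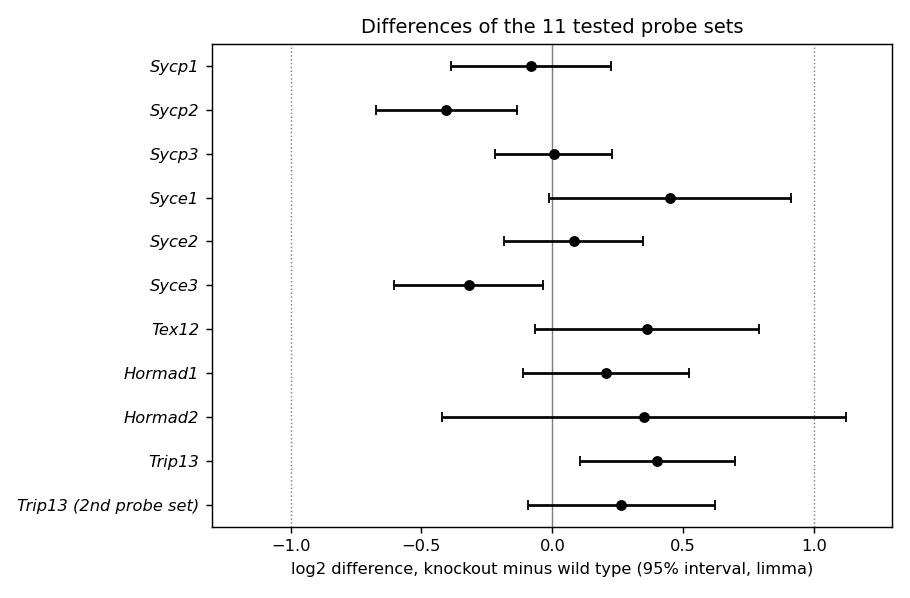
Log2 difference (knockout minus wild type) of the 11 tested probe sets, with 95% intervals from limma and dotted lines at a 2-fold change. The intervals of Sycp2, Syce3 and the brightest Trip13 probe set leave out 0, and none of the 11 passed after adjustment over all tested probe sets.

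Hormad1 (chr3:95559677-95587863) and Hormad2 (chr11:4345801-4441198) encode the HORMA domain proteins of unsynapsed axes. Both proteins act in synapsis checks, and HORMAD1 promotes break formation. Hormad1 read 1143, 1101 and 889 in knockout and 841, 1031 and 840.1 in wild type. Knockout replicate 3 lay below wild-type replicate 2, and the log2 difference was 0.21 ± 0.14 (SE, n = 3 arrays per group, limma adjusted p = 0.461). It was 0.14 without knockout replicate 1 and 0.32 without knockout replicate 3, the ends of its range with each array left out. Hormad2 had the signals nearest to the filter level of 16 intensity units, at 113, 52.7 and 95.7 in knockout and 82.4, 84.45 and 39.5 in wild type. Its arrays were spread widely in both groups (SD of 0.58 log2 units in knockout and 0.62 in wild type), and the difference of 0.35 ± 0.35 (limma adjusted p = 0.628) left a ratio anywhere from 0.746 to 2.18. Both differences were negative once arrays were centred on the germ cell markers (-0.19 for Hormad1 and -0.05 for Hormad2), and Hormad2 was at -0.01 without wild-type replicate 3.

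Trip13 (chr13:73912450-73937795), the ATPase that remodels HORMA domain proteins and also acts in the mitotic spindle checkpoint, had 3 probe sets. The brightest, whose probes may hybridise to more than 1 transcript, read 640.2, 646 and 577 in knockout and 455, 441 and 516 in wild type, with all knockout arrays above all wild-type arrays. The log2 difference was 0.40 ± 0.13 (SE, n = 3 per group), a ratio of 1.08 to 1.62, and did not pass (limma adjusted p = 0.113). It passed after median centring (0.54, limma adjusted p = 0.0412), which puts the median difference of all tested probe sets at 0.13, and it was 0.00 once arrays were centred on the germ cell markers (limma adjusted p = 0.991). The other tested probe set read 232, 211 and 195 in knockout and 199, 174 and 159 in wild type, overlapping, with a difference of 0.26 ± 0.16 (limma adjusted p = 0.400). The remaining probe set lay far under the filter level, at 3.76 to 4.06 in the knockout and 2.84 to 3.44 in the wild type. The log2 ratio of the brightest Trip13 to the Hormad1 signal overlapped between groups (-0.84 to -0.63 in knockout, -1.23 to -0.70 in wild type).

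**Figure D3:**
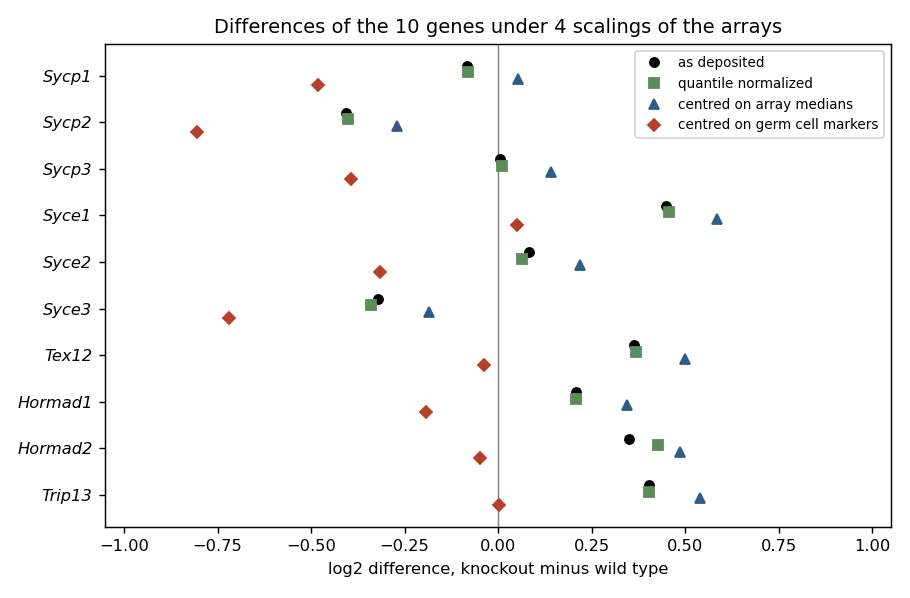
Log2 difference (knockout minus wild type) of the brightest probe set of each gene with the arrays as deposited, after quantile normalization, and after centring on array medians or on the mean of 8 germ cell markers. Sycp2 and Syce3 stay below 0 and Syce1 and Trip13 stay at or above 0 in all 4 scalings, while the sign of Sycp1, Sycp3, Syce2, Tex12, Hormad1 and Hormad2 depends on the scaling.

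Of the 10 genes, 7 had a positive and 3 a negative log2 difference with arrays as deposited, and after centring on the germ cell markers only Syce1 (0.05) and Trip13 (0.00) were not below 0. That centring used the mean log2 value of all 8 markers with equal weight, which was 0.40 higher in knockout. Among them Tdrd1 and Tdrd5 lay under the filter level, and the dim Tdrd9 differed by 0.96. The centring shifts every probe set alike, so differences measured from the median of all tested probe sets were the same under it, at -0.40 for Sycp2, -0.32 for Syce3, 0.45 for Syce1 and 0.40 for Trip13. After quantile normalization they were -0.43, -0.37, 0.43 and 0.38.

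Arrays within a group differed in a way that ran across the genes. Among the wild-type arrays, replicate 2 was the highest for 9 of the 10 genes and replicate 3 the lowest for 7. Among the knockout arrays, replicate 1 was the highest for 6 genes and replicate 2 the lowest for 5. How often each array was highest or lowest over all tested genes was not counted. The mean log2 intensity of the 10 genes was 10.34, 10.08 and 10.20 in the 3 knockout ovary samples and 10.08, 10.29 and 9.94 in the 3 wild-type samples, which overlap. The mean of the 8 germ cell markers was 8.30, 7.78 and 7.92 in knockout and 7.63, 7.64 and 7.53 in wild type, and did not overlap. For the 5 pluripotency genes it was 8.97, 7.31 and 6.08 in knockout and 4.51, 4.93 and 5.16 in wild type, likewise without overlap.

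**Figure D4:**
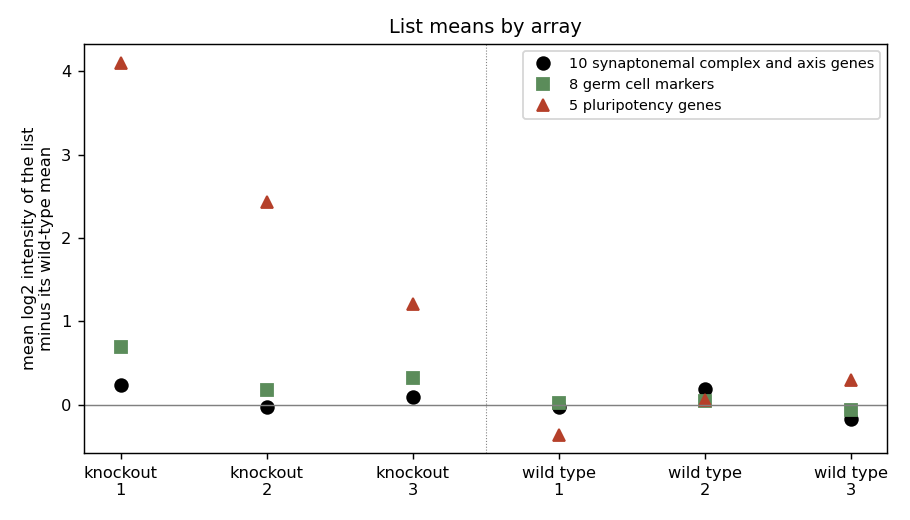
Mean log2 intensity on each array of the 10 synaptonemal complex and axis genes, the 8 germ cell markers and the 5 pluripotency genes, each shown as the distance from its own wild-type mean. The means of the 10 genes overlap between the groups, while those of the other lists lie higher on all 3 knockout arrays.

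Other genes of the pathway were taken from a list of 53 genes in 6 roles, of which 42 were on the array under a single name and 37 passed the filter. By their brightest probe sets 0 of the 37 rose and 1 fell, against 3.55% of all tested genes called. The median log2 difference of the 37 was 0.06. At an unadjusted p under 0.05 (limma), 5 of the 37 were higher and 4 lower in knockout. Over all tested probe sets the share was 20.7% in either direction. The share over genes counted once was not computed, so these figures are not like for like. The gene that fell was 4930447C04Rik, known as Six6os1, whose protein binds SYCE1 in the central element. Its brightest probe set read 398, 265 and 369.8 in knockout and 552, 759.8 and 561 in wild type, with all knockout arrays below, and it fell by 0.87 ± 0.19 on the log2 scale (SE, n = 3 arrays per group, limma adjusted p = 0.0252). Its other probe sets disagreed, one at -0.96 (limma adjusted p = 0.158) and one at 0.72 with all knockout arrays above (limma adjusted p = 0.0591). Averaged over the 3 probe sets the gene differed by -0.37 (limma adjusted p = 0.412), and the call also ended with the replicate number as a block (-0.87, adjusted p = 0.0639) and without wild-type replicate 1 (-0.95, 0.0595), 2 (-0.72, 0.114) or 3 (-0.93, 0.0542). The log2 ratio of the Syce1 signal to that of this brightest probe set lay between 1.88 and 2.34 in knockout and between 0.68 and 0.93 in wild type, without overlap and without a test. It was not taken with the other probe sets of Six6os1, including that at 0.72, so the separation holds for this probe set only.

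In the meiotic cohesin, which holds sister chromatids along the axis, 0 of 4 tested genes passed. Rec8, its meiosis-specific kleisin, read 1723, 545 and 661 in knockout and 492, 199 and 208 in wild type. Those groups did not overlap, with a difference of 1.64 ± 0.44 (SE, n = 3 arrays per group, limma adjusted p = 0.0538) that was 1.14 without knockout replicate 1 (0.116). With each array left out in turn it ran from 1.14 to 2.07. It passed in 8 of 18 alternatives, among them the replicate number as a block (1.64, limma adjusted p = 0.000631) and germ cell marker centring (limma adjusted p = 0.000404), over a range of limma adjusted p from 0.000404 to 0.169. Stag3, another meiotic cohesin subunit, differed by 0.19 (limma adjusted p = 0.716). Of 4 tested genes of the break machinery on the axis 0 passed by their brightest probe sets. Rec114, a partner of the break enzyme complex, read 1988, 2000.2 and 1951 in knockout and 1552, 1605 and 1442 in wild type, a difference of 0.37 in its brightest probe set (limma adjusted p = 0.0508). The probes of this brightest set may hybridise to more than 1 transcript, and its difference was -0.03 after centring on the germ cell markers. The other tested Rec114 probe set passed, with a difference of 0.88 ± 0.21 (SE, n = 3 arrays per group) and all knockout arrays above (limma adjusted p = 0.0356). Spo11, the break enzyme, differed by -0.22 (limma adjusted p = 0.571).

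Of 7 tested genes of telomere attachment 0 passed, with Terb2 at 0.40 (limma adjusted p = 0.291) and the nuclear membrane gene Sun2 at -0.15 (0.615). A further Sun2 probe set lay under the filter level. Among 9 tested checkpoint genes and TRIP13 partners 0 passed. Atr, the kinase that marks unsynapsed axes, differed by -0.28 with all knockout arrays below (limma adjusted p = 0.0786) and by -0.77 in its other tested probe set, where the groups overlapped (0.122). Mad2l1, the spindle checkpoint protein that TRIP13 remodels, differed by 0.33 (limma adjusted p = 0.318). In strand exchange and crossover formation 0 of 7 passed, with Ccnb1ip1, a ligase of crossover sites, at 0.51 (limma adjusted p = 0.137) and the recombinase Dmc1 at -0.65 (0.171), or -0.44 (0.552) in its other probe set. Of 6 tested genes of other synaptonemal complex and synapsis functions, the 5 beside Six6os1 did not pass, and all 5 had a positive log2 difference. The largest were Hsf2bp at 0.87, with overlapping groups (limma adjusted p = 0.0862), and 4930432K21Rik (Brme1) at 0.83, with all knockout arrays above (0.0525). Both were named after their values were seen. The meiotic entry gene Stra8 was at -0.17 (limma adjusted p = 0.704).

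**Figure D5:**
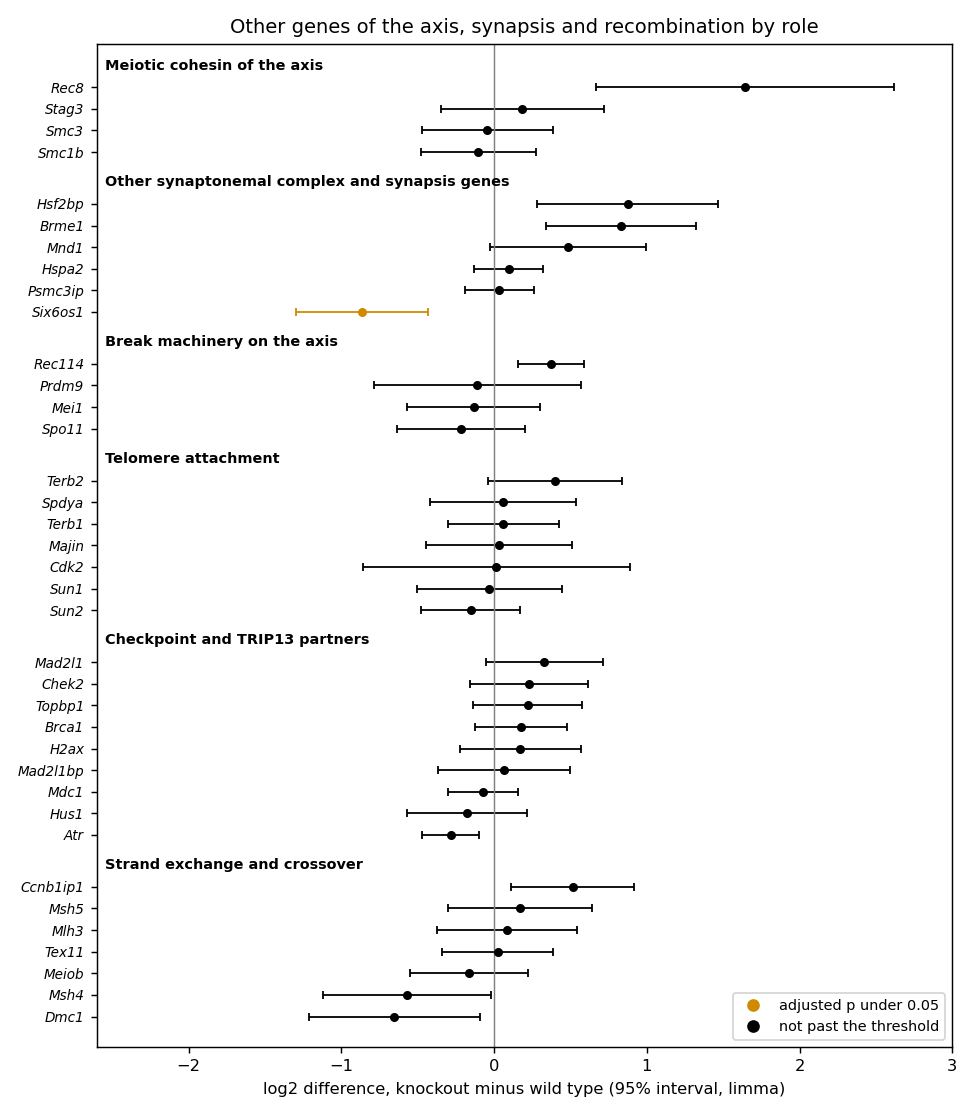
Log2 difference (knockout minus wild type) with 95% intervals from limma for the 37 other tested genes, grouped by role and each shown through its brightest probe set. Six6os1 is the gene in colour, past an adjusted p of 0.05, and Rec8 has the largest positive difference and among the widest intervals.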

How the data were processed

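Expression was measured in 6 ovary samples, 3 knockout and 3 wild type, grouped by the labels. The authors deposited 1 intensity per probe set on a linear scale, made with GCRMA per the submitters' processing notes; version and settings are not given in the sources used here. Near the floor of such values, differences mean little. The intensities were taken to log2, and 64 control probe sets were left out of 45101. A probe set was tested when it reached log2 4 (16 units) on at least 3 of the 6 arrays. The genotype fit used lmFit and eBayes with trend (limma 3.58.1, R 4.3.3, 2-sided), with Benjamini-Hochberg adjustment over all 22040 tested probe sets and a threshold of 0.05; the steps were tested on simulated data. Arrays carry no counts, so their number limits the precision, and 0 pairs of arrays held identical values. Gene names are those of the platform annotation, checked by gene ID against RefSeq (GRCm38.p6), where 0 had changed.

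A gene is described through its brightest probe set by the mean over all arrays. Where a named gene among the 10 or in the wider list has other tested probe sets, their values are given too. All other named genes, among them Xist, the meiotic entry gene and the cell type markers, are given through the brightest probe set only. Further probe sets of those genes were not looked at. The rule for names was all 10 genes and, in each role of the wider list, the genes past the threshold or else the 2 with the smallest p. The genes and lists were chosen with earlier results of these data known. Alternatives covered filters, an offset, eBayes settings, array weights, scaling, the replicate number as a block, the choice of probe sets and each array left out in turn.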

Additional observations from a re-analysis of the deposited data

How the results depend on the processing

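The differences of the 11 tested probe sets kept their direction and their side of the threshold in 157 of 176 repeats, passed in 4 and changed sign in 15. Signs changed for Sycp3 with array weights (-0.021) and for Sycp1 after median centring (0.054). Centring on the germ cell markers turned Sycp3 (-0.39), Syce2 (-0.32), Tex12 (-0.037), Hormad1 (-0.19), Hormad2 (-0.049), the other Trip13 probe set (-0.14) and Rec114 (-0.028). With each array left out in turn, Sycp1 ran from -0.18 to 0.015, Sycp3 from -0.064 to 0.058, Syce2 from -0.017 to 0.18 and Hormad2 from -0.010 to 0.68. Of the 11 probe sets, 1 passed higher after median centring (Trip13), beside 874 of all 22040 tested probe sets. After germ cell marker centring 2 passed lower (Sycp2 and Syce3), beside 4594 of all 22040. With an array left out 0 to 1 passed lower (Sycp2), beside 645 to 1119 of all. The median of the 10 genes was -0.25 after germ cell marker centring. The cause of these shifts was not tested beyond the centring itself, which moves every probe set alike.

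Over all probe sets, 1325 were higher and 1957 lower in knockout without a filter, and 203 and 753 under the stricter one. The count higher was 874 after median centring, 154 with 4594 lower after germ cell marker centring, and 207 with the replicate block. With an array left out, 159 to 422 were higher and 645 to 1119 lower. Of the wider list, 3 genes rose with no filter, 1 with the offset, 4 with array weights, 1 after quantile normalization, 4 after median centring, 1 after germ cell marker centring, 1 with averaged probe sets and 3 with probe sets of less specific design left out. These were drawn from Rec8, Rec114, Hsf2bp and 4930432K21Rik (Brme1), the last 2 named after their values were seen. Those that fell numbered 4 after germ cell marker centring (Six6os1, Atr, Dmc1 and Msh4, the last named after its value was seen) and 0 with averaged probe sets, and with an array left out 0 to 3 rose and 0 to 1 fell.

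Whether same-numbered arrays form pairs is not known from the labels. Deviations of same-numbered arrays from their group means correlated at -0.17, -0.25 and -0.17. Differently numbered arrays were not compared in this way, so these values do not settle the question. With the replicate block, 1 gene of the wider list rose (Rec8, limma adjusted p = 0.000631) and 0 fell, and none of the 11 probe sets passed (Sycp2 -0.41, limma adjusted p = 0.147).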
